A study of Mus musculus with 9 samples.

Results

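The subject is 38 genes of the heat shock and cochaperone system in RAW264.7, a mouse macrophage-like tumour cell line. They were chosen by name: the heat shock factors Hsf1 and Hsf2, the HSP70, HSP110, HSP90 and small heat shock protein genes, the mitochondrial chaperones, cytosolic J-domain proteins, exchange factors, HSP90 cochaperones and 4 subunits of the chaperonin TRiC. All 38 names were in the table, which holds 54052 named features, and 35 of them passed the filter of a mean of at least 0.5 FPKM (reads scaled to gene length and library size) over the 9 libraries, as did 12030 features in all. The 3 that did not were Hspa1a, Hspa2 and Hspb1.

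The study's title concerns ultrasound, piezoelectric membranes and macrophage polarization. Polyadenylated RNA was sequenced from wild type RAW264.7 cells in 3 groups of 3 libraries. The groups were a blank control, cells grown on a BMC membrane, and cells grown on a BMC membrane and stimulated with low-intensity pulsed ultrasound (BMC+LIPUS). The labels do not spell out BMC, and no group had ultrasound without a membrane. Whether replicate libraries are separate cultures is not stated, so every p-value here covers the spread among the sequenced libraries, which may be technical. Libraries held 12675541 to 16574453 counts over named features. Of 10 macrophage markers 9 passed the filter, with a summed level of 6597 to 7376 FPKM in the controls, 7233 to 7983 on BMC and 7425 to 7672 with BMC+LIPUS. The marker below the filter was Mertk. Most of the sum was Lyz2, at 4909.57 to 5501.12 FPKM in the controls, which was called 1.12-fold higher on BMC only. Among the 9, Cd14 was called 1.73-fold higher on BMC and 1.79-fold with BMC+LIPUS, Spi1 1.27-fold and 1.33-fold higher, Ptprc 1.20-fold and 1.27-fold lower, and Cd68 1.16-fold lower in both. Of the 10 fibroblast and bone markers, 8 lymphocyte markers, 7 epithelial and endothelial markers and 7 granulocyte and mast cell markers, 1, 0, 0 and 1 passed it. The summed fibroblast and bone markers were at 0.80 to 1.01 FPKM in the controls, 1.44 to 1.72 on BMC and 1.78 to 1.80 with BMC+LIPUS. Their tested gene, Pdgfrb, was called 2.06-fold and 2.28-fold higher, and the part of this in the members' changes was not tested. The other lists stayed at or below 0.36, 0.06 and 1.44 FPKM in every library, and Col1a2, Cd3e, Epcam and Ly6g were at 0 counts throughout.

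Heat shock proteins are chaperones that bind unfolded protein. HSP70 proteins hold short stretches of an unfolded chain in cycles of ATP hydrolysis, which J-domain proteins start and nucleotide exchange factors end. HSP90 takes over partly folded clients such as kinases and steroid receptors with the help of cochaperones, and the ring-shaped TRiC folds actin and tubulin. Under heat or proteotoxic stress HSF1 forms trimers, binds heat shock elements made of repeated GAA units and their complements, and raises the inducible members strongly, while constitutive members such as Hspa8 and Hsp90ab1 are abundant without stress. Macrophages, like other cells, raise the inducible HSP70 when heated.

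Promoters are shown for the 3 members called higher on the membrane with the largest rises among those whose window held a pair of facing GAA units, and for Hspa1a, the near-identical copy of Hspa1b. The sequences are from RefSeq (build GRCm38.p6), run from 250 bases before to 50 bases after the start, 5′ to 3′ on the strand of the gene, and the capitals mark each match to GAANNTTC or TTCNNGAA. The Hspa1b window is chr17:34959189-34959488 (minus strand), that of Hspa1a chr17:34972107-34972406 (minus), that of Chordc1 chr9:18292017-18292316 (plus) and that of Dnaja1 chr4:40722218-40722517 (plus).
Hspa1b: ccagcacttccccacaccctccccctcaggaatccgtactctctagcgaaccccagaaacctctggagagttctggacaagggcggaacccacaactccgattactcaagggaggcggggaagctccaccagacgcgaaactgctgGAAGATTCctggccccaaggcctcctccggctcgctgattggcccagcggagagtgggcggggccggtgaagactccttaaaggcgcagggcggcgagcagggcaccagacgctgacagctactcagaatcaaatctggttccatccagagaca
Hspa1a: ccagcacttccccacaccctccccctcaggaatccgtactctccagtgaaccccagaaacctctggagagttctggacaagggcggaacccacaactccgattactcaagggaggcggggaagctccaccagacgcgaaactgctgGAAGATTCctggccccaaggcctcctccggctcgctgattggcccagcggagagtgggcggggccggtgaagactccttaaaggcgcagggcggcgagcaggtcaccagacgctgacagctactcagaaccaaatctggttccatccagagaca
Chordc1: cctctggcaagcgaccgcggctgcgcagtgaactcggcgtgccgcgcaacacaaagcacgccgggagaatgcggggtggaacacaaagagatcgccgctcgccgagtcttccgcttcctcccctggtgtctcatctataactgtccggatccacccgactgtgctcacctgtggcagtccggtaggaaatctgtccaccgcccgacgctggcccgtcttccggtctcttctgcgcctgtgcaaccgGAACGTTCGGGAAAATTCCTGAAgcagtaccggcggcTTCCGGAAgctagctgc
Dnaja1: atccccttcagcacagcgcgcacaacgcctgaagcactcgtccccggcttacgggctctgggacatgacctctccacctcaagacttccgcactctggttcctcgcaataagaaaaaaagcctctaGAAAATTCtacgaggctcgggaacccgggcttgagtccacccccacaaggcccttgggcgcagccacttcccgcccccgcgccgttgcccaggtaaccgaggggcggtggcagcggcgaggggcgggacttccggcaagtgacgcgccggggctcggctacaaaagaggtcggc
The windows of Hspa1a and Hspa1b were identical at 296 of 300 positions and held the same match, which began 104 bases before the start. The Dnaja1 match began 124 bases before the start, and the 5 Chordc1 matches overlapped or lay close to each other around the start itself.

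Both patterns read the same on either strand. Of 32851 promoter windows in the table, 15.1% held at least 1 of them, and of the 43 windows that belong to 32 of the 38 members 17 did, in 15 members. A row of 3 units, which is GAANNTTC continued by NNGAA or TTCNNGAA continued by NNTTC and so contains the shorter patterns, were in 0.603% of all windows and in 7 of the 43, those of Chordc1, Dnajb6, Hspd1, Hspe1 and Hsph1. A match describes letters in the window and is no evidence of binding. Of the 5 members with 3 units, 2 were called higher on BMC and 3 were not called. Of 13 tested members with either shorter pattern, 8 were called higher and 0 lower on BMC (median log2 change 0.20). Of 16 without, 5 were called higher and 2 lower (0.14). Over all features 17.1% were called higher and 18.7% lower. A link between these letters and the changes was not tested. Hsf1, Hspa8, Hspa9, Hsp90aa1, Hsp90ab1 and St13 were not in the promoter table. All of them were called higher on BMC, so the counts with and without a pattern leave out these rises.

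The tested members spanned a wide range of levels, from Hspa1b at 0.28 to 0.80 FPKM in the controls to Hsp90ab1 at 883.42 to 944.29. The 38 genes together took 1.35% to 1.38% of a control library's counts, 1.43% to 1.5% on BMC and 1.42% to 1.49% with BMC+LIPUS. The most abundant were Hsp90ab1, with a mean of 957.9 FPKM over the 9 libraries, the mitochondrial chaperonin Hspd1 at 436.4, and Hspa8 and the TRiC subunit Cct2, both at 264.7. The least abundant tested members were Dnajb4 at 2.18, Hsf2 at 2.74, Dnajb2 at 3.04 and Hspa1b at 3.09.

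**Figure D1:**
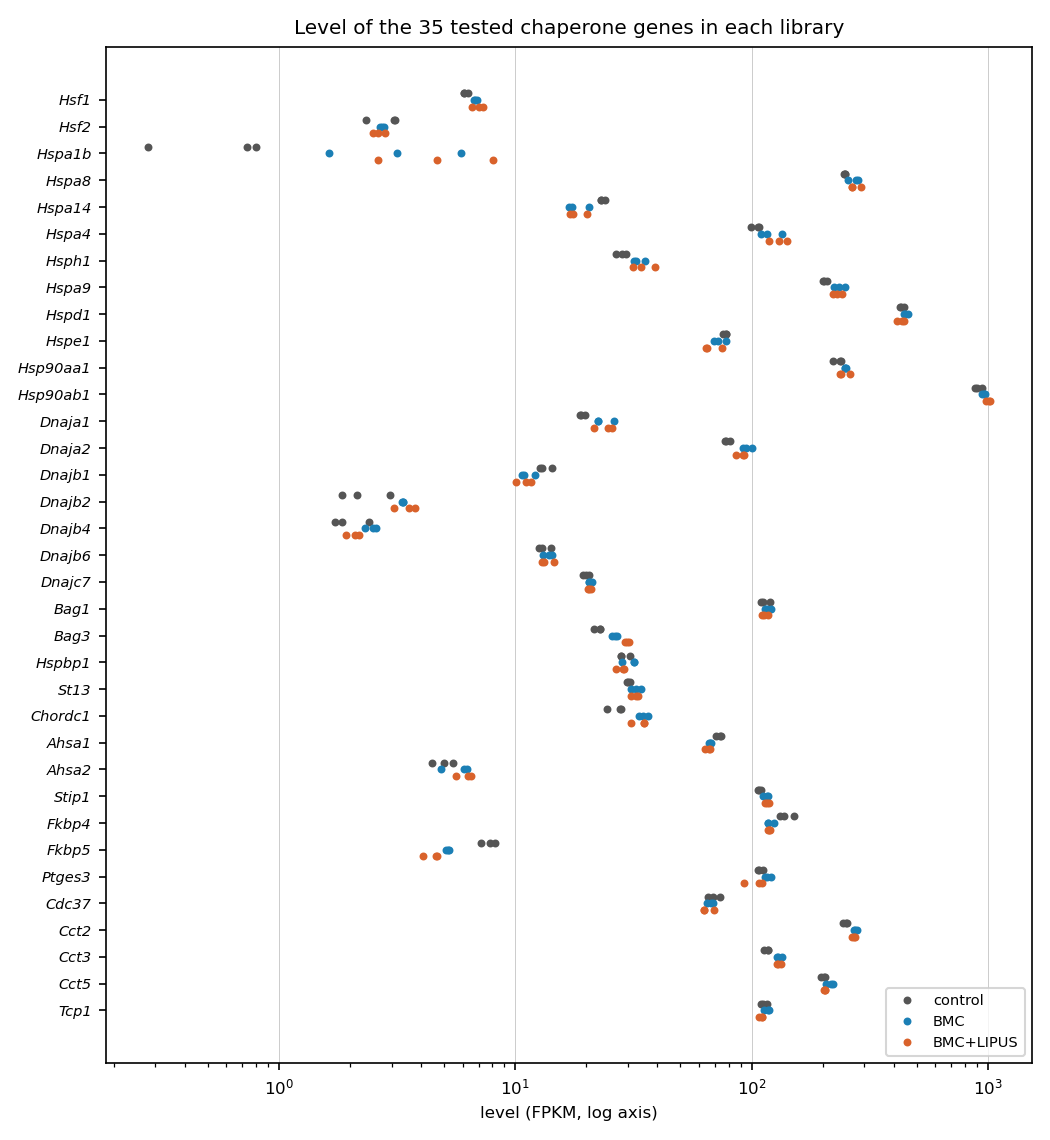
Level of each of the 35 tested genes (FPKM, log axis) in the 3 control, 3 BMC and 3 BMC+LIPUS libraries, 1 point per library. Hspa1b spreads from 0.28 to 8.05 FPKM, while Hsp90ab1 stays between 883.42 and 1019.84.

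BMC libraries were first set against controls, a contrast of membrane growth without ultrasound. Most members changed little in size but in the same direction: 19 of 35 rose and 2 fell, and 14 were not called by edgeR at an adjusted p under 0.05. Over all 12030 features, 35.9% were called, 17.1% higher and 18.7% lower. The median log2 change of the tested members was 0.17, against 0.011 over all tested features. Hspa1b was the exception in size, fitted 6.26-fold higher. It was the 1 member of 35 called at least 2-fold changed, against 3.52% of all features. The called members had a median absolute log2 change of 0.272, against 0.406 for all called features. Hspa14 and Fkbp5 were the 2 that fell.

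The FPKM of the 2 groups did not overlap in 23 of 35 members, 18 higher and 5 lower on BMC, against 46.5% of all tested features, 17.1% higher and 29.4% lower. Fitted changes use TMM scaling factors and stood 0.064 log2 above the ratio of mean FPKM in this comparison, 0.070 in BMC+LIPUS against control and 0.006 in BMC+LIPUS against BMC (medians over tested features). With library totals as the scaling, 10 members were called higher and 4 lower, and of all features 1457 higher and 2761 lower in place of 2062 and 2252. With limma on log2(FPKM + 1), 10 members were called higher and 5 lower, and of all features 1330 and 2545. Under both, Hsf1, Hspa8, Hspa4, Hsp90aa1, Hsp90ab1, Dnajb4, St13, Stip1 and Cct5 lost their calls, and Dnajb1 and Fkbp4 were called lower, as was Ahsa1 under limma. At a minimum mean of 5 FPKM, which leaves out Hspa1b, Hsf2, Dnajb2 and Dnajb4, 10 of 31 members were called higher and 4 lower. Of 7231 features at that level, 1375 were called higher and 1599 lower. Without control replicate 1 the members called were 10 higher and 2 lower, and of all 12030 features 1600 and 1894.

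In BMC+LIPUS against control, which shares the control libraries with the comparison above, 18 members were called higher, 4 lower and 13 not at all. The percentages over all features were 42.9 called, 21 higher and 21.9 lower. The median log2 change of the members was 0.15, against 0.012 over all tested features. The groups did not overlap in 23 members, 17 higher and 6 lower, against 50.9% of all features, 19.6% higher and 31.3% lower. With library totals 14 members were called higher and 6 lower, and of all features 1868 and 3205 in place of 2525 and 2632. With limma on log2(FPKM + 1) 14 members were called higher and 5 lower, and of all features 1735 and 3030. Hsp90aa1, St13 and Stip1 lost their calls under both, Cct2 under library totals and Ahsa2 under limma, while Ahsa1 was called lower under both. At a minimum mean of 5 FPKM, 14 of 31 members were called higher and 4 lower, and of 7231 features 1771 and 1811. In bulk libraries, less RNA of a gene per cell and fewer cells that carry it cannot be told apart.

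**Figure D2:**
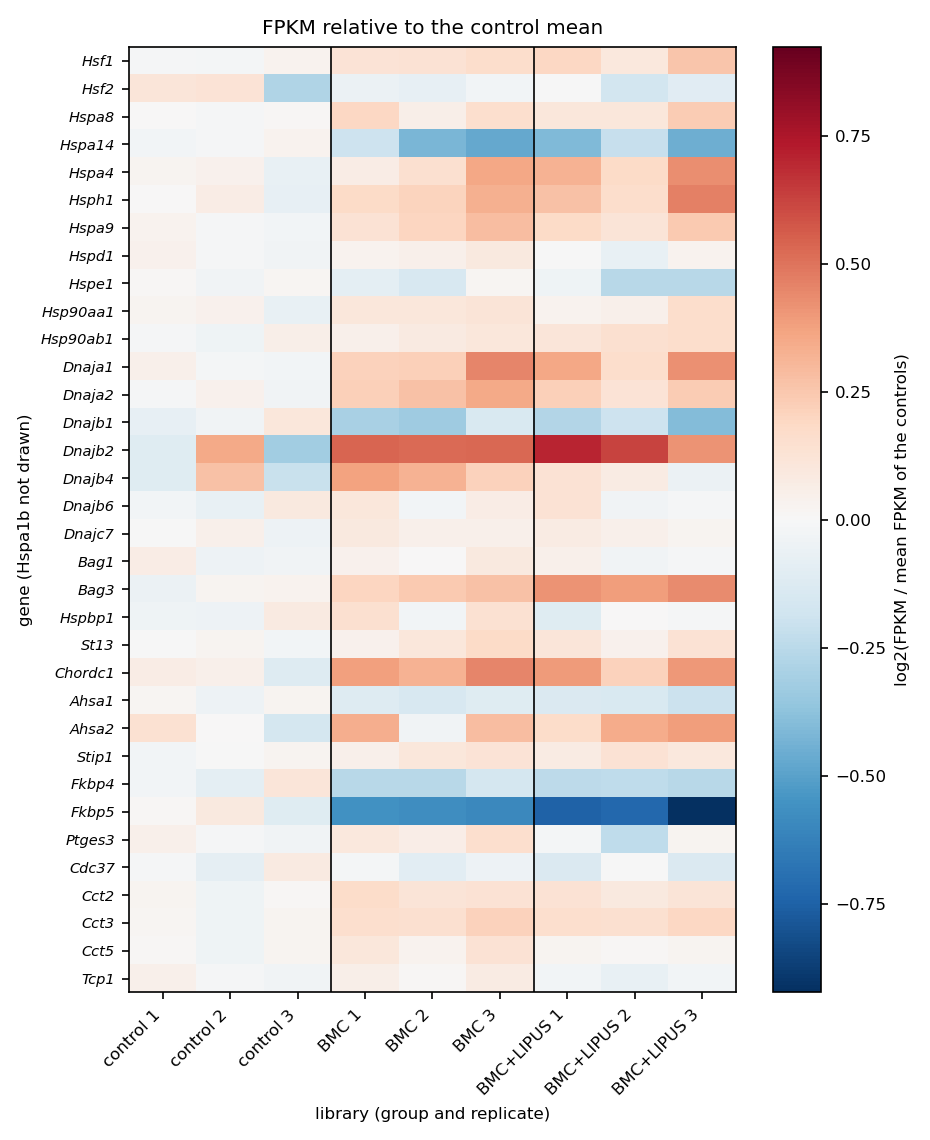
FPKM of 34 members in each library, as log2 of the ratio to the mean of the 3 controls (colour), with libraries in columns grouped by condition. Chordc1, Dnajb2, Hsph1 and Bag3 are above the control mean in all 6 membrane libraries and Fkbp5 is below it. Hspa1b, which is far off this colour scale, is not drawn.

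Heat shock factors came first in the order of roles. Hsf1, the master regulator of the response, stood at 6.10, 6.09 and 6.29 FPKM in the controls, 6.72, 6.76 and 6.91 on BMC and 7.03, 6.58 and 7.34 with BMC+LIPUS. All membrane libraries were above all controls. The fit gave a log2 change of 0.21 on BMC (SE 0.07, edgeR adjusted p = 0.0344) and 0.25 with BMC+LIPUS (edgeR adjusted p = 0.00919). The first call was lost without BMC replicate 2, BMC replicate 3, control replicate 1 or control replicate 2 (log2 change 0.19 to 0.21), and the second without BMC+LIPUS replicate 3 (0.20). Hsf2, a related factor that can form mixed trimers with HSF1, stood at 3.06, 3.09 and 2.33 FPKM in the controls, 2.72, 2.68 and 2.78 on BMC and 2.82, 2.51 and 2.63 with BMC+LIPUS. The 3 groups overlapped, and Hsf2 was not called (log2 change 0.01 on BMC, SE 0.10, edgeR adjusted p = 0.960).

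Of the cytosolic HSP70 genes, the stress-inducible Hspa1b had the widest values of all tested members. Its counts were 32, 13 and 28 in the controls, 64, 130 and 212 on BMC, and 200, 93 and 310 with BMC+LIPUS. In FPKM these were 0.80, 0.28 and 0.73 in the controls, 1.63, 3.16 and 5.89 on BMC and 4.67, 2.62 and 8.05 with BMC+LIPUS. Every membrane library was above every control, while the BMC and BMC+LIPUS libraries overlapped. The fitted change was 2.65 log2 on BMC (SE 0.51, edgeR adjusted p = 0.000774) and 3.19 log2 with BMC+LIPUS, or 9.14-fold (SE 0.50, edgeR adjusted p = 8.00e-05). Leaving out any 1 library moved these values to between 2.08 and 3.00 and between 2.69 and 3.51, and both calls held in all 16 alternatives in which Hspa1b could be tested.

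The level of Hspa1b is uncertain because of Hspa1a, its near-identical copy next to it in the genome. Of all 150-base windows of the GENCODE Hspa1b transcript, 40.5% occur unchanged in that of Hspa1a, and 38.1% of the Hspa1a windows occur in Hspa1b. Hspa1a had 1 count in BMC replicate 1, 1 in BMC+LIPUS replicate 3 and 0 in the other 7 libraries, and how reads matching both copies were counted is not given in the sources used here. With the counts of both copies summed, the change was 2.65 log2 on BMC (edgeR adjusted p = 0.000750) and 3.19 with BMC+LIPUS (edgeR adjusted p = 7.71e-05). With so few Hspa1a counts the sum could hardly differ from Hspa1b alone. It therefore does not settle how reads matching both copies were counted.

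Hspa8, the constitutive HSP70, stood at 248.40, 245.57 and 249.12 FPKM in the controls, 282.44, 256.78 and 275.56 on BMC and 266.05, 266.26 and 291.89 with BMC+LIPUS. It was above the controls in every membrane library, by 0.20 log2 on BMC (SE 0.06, edgeR adjusted p = 0.0148) and 0.22 with BMC+LIPUS (edgeR adjusted p = 0.00595). The BMC call was lost without BMC replicate 1, BMC replicate 3 or control replicate 1 (log2 change 0.18 to 0.19, edgeR adjusted p = 0.0506 to 0.0553). Hspa14, an HSP70 relative that works at the ribosome with a J-domain partner, fell 1.23-fold on BMC (edgeR adjusted p = 0.00650) and 1.22-fold with BMC+LIPUS. Its mean went from 23.4 ± 0.520 FPKM in the controls to 18.2 ± 1.95 and 18.3 ± 1.65 (SD, n = 3). Hspa2, known for its role in spermatogenesis, was at 0.36 to 0.63, 0.26 to 0.59 and 0.30 to 0.36 FPKM in control, BMC and BMC+LIPUS, and was not tested.

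The HSP110 proteins Hspa4 and Hsph1 are HSP70 relatives that act as its exchange factors. Hsph1 stood at 28.22, 29.50 and 26.75 FPKM in the controls, 31.78, 32.40 and 35.43 on BMC and 34.01, 31.48 and 38.90 with BMC+LIPUS. Hspa4 stood at 106.68, 107.85 and 99.71 FPKM, then 109.56, 116.18 and 134.20, then 130.79, 118.06 and 140.98 in the same order. For both, all membrane libraries were above all controls. Hsph1 rose by 0.30 log2 on BMC (SE 0.08, edgeR adjusted p = 0.00761) and by 0.38 with BMC+LIPUS (edgeR adjusted p = 0.00119). Hspa4 rose by 0.26 log2 (SE 0.08, edgeR adjusted p = 0.0209) and 0.38 (edgeR adjusted p = 0.00134). The Hspa4 call on BMC was lost without BMC replicate 3 (the value then fell to 0.16), control replicate 1 or control replicate 3. The small heat shock protein gene Hspb1, which encodes mouse HSP25, had 0 counts in all 9 libraries, so that the upper limit was 0.0673 CPM for the controls, 0.0723 for BMC and 0.0720 for BMC+LIPUS (3 counts over a group's total, counting error only).

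Hspa9, Hspd1 and Hspe1 encode the mitochondrial HSP70, HSP60 and HSP10. Hspa9 stood at 209.36, 202.68 and 200.63 FPKM in the controls, 224.31, 234.82 and 248.45 on BMC and 230.76, 222.05 and 241.78 with BMC+LIPUS. Its groups did not overlap with the controls, and it rose by 0.27 log2 on BMC (SE 0.06, edgeR adjusted p = 0.00201) and by 0.25 with BMC+LIPUS (edgeR adjusted p = 0.00273). Hspd1, at means of 432.0, 449.1 and 428.3 FPKM in control, BMC and BMC+LIPUS, was not called in either comparison with control. Neither was Hspe1, at 77.1, 73.4 and 68.1 FPKM, although all BMC+LIPUS libraries were below all controls (log2 change -0.11, SE 0.07, edgeR adjusted p = 0.238). Under library totals this Hspe1 difference was called.

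Both HSP90 genes were called higher in both comparisons with control, with small changes. Hsp90ab1, the constitutive isoform, stood at 903.12, 883.42 and 944.29 FPKM in the controls, 941.28, 963.18 and 976.62 on BMC and 981.72, 1007.52 and 1019.84 with BMC+LIPUS. BMC overlapped with control and BMC+LIPUS did not. The changes were 0.14 log2 (SE 0.05, edgeR adjusted p = 0.0388) and 0.21 log2 (edgeR adjusted p = 0.00308). Hsp90aa1, the inducible isoform, stood at 236.77, 238.05 and 221.37 FPKM, then 249.01, 249.32 and 251.92, then 237.45, 239.91 and 259.92 in the same order. It was above all controls on BMC, by 0.17 log2 (edgeR adjusted p = 0.0252), and overlapped with them with BMC+LIPUS, at 0.15 log2 (edgeR adjusted p = 0.0367). On BMC, both calls were lost without BMC replicate 2, BMC replicate 3 or control replicate 1, that of Hsp90ab1 also without control replicate 2 (log2 change 0.12 to 0.14), and that of Hsp90aa1 also without control replicate 3 (0.14 to 0.18). The BMC+LIPUS call of Hsp90aa1 was lost without BMC replicate 2, BMC+LIPUS replicate 3 or any control (0.10 to 0.17). With library totals or limma, all these HSP90 calls except that of Hsp90ab1 in BMC+LIPUS were lost.

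J-domain proteins deliver clients to HSP70 and start its ATP hydrolysis. Of 7 tested, 4 rose and 0 fell on BMC, and 3 rose and 1 fell with BMC+LIPUS. In each comparison 57.14% were called, against 35.9% and 42.9% of all features. Dnaja1 stood at 19.82, 19.02 and 18.85 FPKM in the controls, 22.30, 22.41 and 26.31 on BMC and 24.67, 21.49 and 25.76 with BMC+LIPUS, which gave 0.36 log2 (SE 0.08, edgeR adjusted p = 0.00245) and 0.39 log2. Dnaja2, its close relative, stood at 78.25, 80.78 and 77.11 FPKM, then 91.74, 94.81 and 100.16, then 91.72, 85.74 and 92.55, a rise of 0.34 log2 (SE 0.06, edgeR adjusted p = 0.000351) and 0.26 log2. Neither gene overlapped between controls and membrane libraries. Dnajb2, known from neurons for steering ubiquitinated clients, stood at 2.14, 2.95 and 1.85 FPKM in the controls, 3.35, 3.32 and 3.34 on BMC and 3.77, 3.56 and 3.08 with BMC+LIPUS. It rose by 0.58 log2 (SE 0.15, edgeR adjusted p = 0.00607) and 0.65 log2, with the controls more scattered than the BMC libraries.

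Dnajb1, the heat-inducible partner of the inducible HSP70, did not follow Hspa1b in direction. It stood at 12.70, 13.04 and 14.35 FPKM in the controls, 10.88, 10.64 and 12.10 on BMC and 11.06, 11.69 and 10.11 with BMC+LIPUS, so all membrane libraries were below all controls. The change was -0.19 log2 on BMC and not called (SE 0.08, edgeR adjusted p = 0.0856), though it was called without BMC replicate 3 (-0.26), and -0.22 log2 with BMC+LIPUS (edgeR adjusted p = 0.0444). That call was lost without BMC replicate 2, BMC+LIPUS replicate 1 or 3, or control replicate 2 or 3 (-0.24 to -0.17). Dnajb4 was called on BMC, at 0.36 log2 (SE 0.12, edgeR adjusted p = 0.0215), with groups that overlapped, and stood at 0.12 log2 with BMC+LIPUS (edgeR adjusted p = 0.454). It lost that call without BMC replicate 1 or 2 or control replicate 1 or 3 (0.27 to 0.35). Dnajb6, a suppressor of protein aggregation, and Dnajc7, which binds both HSP70 and HSP90, were not called (0.12 log2 each on BMC, SE 0.07 and 0.05).

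Among exchange factors and related proteins of HSP70, 2 of 4 rose in either comparison with control. That is 50% called, against 35.9% of all features on BMC and 42.9% with BMC+LIPUS. Bag3, an exchange factor that links HSP70 to autophagy and is a known HSF1 target, stood at 21.54, 22.77 and 22.87 FPKM in the controls, 25.75, 26.45 and 26.96 on BMC and 29.81, 29.20 and 30.33 with BMC+LIPUS. The 3 groups did not overlap at all. The rise was 0.30 log2 on BMC (SE 0.06, edgeR adjusted p = 0.00177) and 0.48 log2 with BMC+LIPUS, or 1.40-fold (edgeR adjusted p = 1.79e-05). St13, which encodes the HSP70-interacting protein Hip, rose by 0.17 log2 (edgeR adjusted p = 0.0327) and 0.16 log2 (edgeR adjusted p = 0.0354). Its BMC call was lost without BMC replicate 2 or 3 or any control (0.13 to 0.18), and its BMC+LIPUS call without BMC replicate 2, BMC+LIPUS replicate 1 or 3 or any control (0.13 to 0.17). Bag1 and Hspbp1, 2 further exchange factors, were not called, at 0.11 and 0.15 log2 on BMC.

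Of the 8 HSP90 cochaperones 2 rose and 1 fell on BMC, which is 37.5% called against 35.9% of all features, and 3 rose and 2 fell with BMC+LIPUS, or 62.5% against 42.9%. Chordc1, a zinc-binding HSP90 partner, stood at 27.93, 27.63 and 24.52 FPKM in the controls, 34.65, 33.34 and 36.40 on BMC and 35.14, 30.98 and 35.22 with BMC+LIPUS. It was higher in all membrane libraries, by 0.45 log2 (SE 0.07, edgeR adjusted p = 0.000149) and 0.41 log2 (edgeR adjusted p = 0.000224). Fkbp5, an immunophilin that restrains the glucocorticoid receptor and is itself a glucocorticoid target, stood at 7.81, 8.24 and 7.17 FPKM in the controls, 5.24, 5.21 and 5.12 on BMC and 4.62, 4.68 and 4.08 with BMC+LIPUS. The 3 groups did not overlap. Fkbp5 fell 1.43-fold on BMC (log2 change -0.51, SE 0.07, edgeR adjusted p = 4.01e-05) and 1.65-fold with BMC+LIPUS (log2 change -0.73, SE 0.07, edgeR adjusted p = 8.11e-07).

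Fkbp4, the paralogue of Fkbp5 that favours receptor activity, was at 140.1, 120.0 and 118.3 FPKM in control, BMC and BMC+LIPUS, with all membrane libraries below all controls. It was not called on BMC (log2 change -0.16, SE 0.06, edgeR adjusted p = 0.0549; DESeq2 called it) and was called lower with BMC+LIPUS (-0.17, edgeR adjusted p = 0.0323). The BMC change was called without BMC replicate 3 or control replicate 2 (-0.21 to -0.20) and was -0.10 without control replicate 3, and the BMC+LIPUS call was lost without any BMC+LIPUS library or control replicate 1 or 3 (-0.19 to -0.12). Stip1, the adaptor between HSP70 and HSP90 also called HOP, rose by 0.16 log2 (edgeR adjusted p = 0.0329) and 0.17 log2 (edgeR adjusted p = 0.0168). It lost the BMC call without BMC replicate 2 or 3 or control replicate 1 or 2 (0.13 to 0.15) and the BMC+LIPUS call without BMC+LIPUS replicate 3 or control replicate 1 or 2 (0.15 to 0.16). Ahsa2 was called with BMC+LIPUS, at 0.37 log2 (SE 0.11, edgeR adjusted p = 0.0118), but not without BMC+LIPUS replicate 3 or control replicate 3 (0.30 to 0.31). On BMC it was at 0.27 log2 and was called only without BMC replicate 2 (0.37). Ahsa2 is the paralogue of Ahsa1. The HSP90 ATPase activator Ahsa1, the kinase adaptor Cdc37 and the cochaperone p23 (Ptges3) were not called, at -0.06, 0.01 and 0.17 log2 on BMC. Ptges3 was called there without BMC+LIPUS replicate 2 (edgeR adjusted p = 0.0213).

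Of the 4 TRiC subunits 3 rose on BMC and 2 with BMC+LIPUS, or 75% and 50% called against 35.9% and 42.9% of all features. Cct2 stood at 253.47, 243.08 and 251.92 FPKM in the controls, 279.97, 271.28 and 273.04 on BMC and 273.11, 265.72 and 271.09 with BMC+LIPUS. Cct3 stood at 117.27, 113.00 and 117.93 FPKM, then 129.26, 128.76 and 134.82, then 129.32, 128.55 and 132.84. In both genes every membrane library was above every control, with rises on BMC of 0.20 log2 for Cct2 (SE 0.05, edgeR adjusted p = 0.00498) and 0.24 log2 for Cct3 (SE 0.05, edgeR adjusted p = 0.00219). With BMC+LIPUS they were 0.18 and 0.24 log2. Cct5 rose by 0.16 log2 on BMC (edgeR adjusted p = 0.0303), a call lost without BMC replicate 1 or 3 or control replicate 1 or 2 (0.13 to 0.16), and Tcp1 was not called (0.11 log2).

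**Figure D3:**
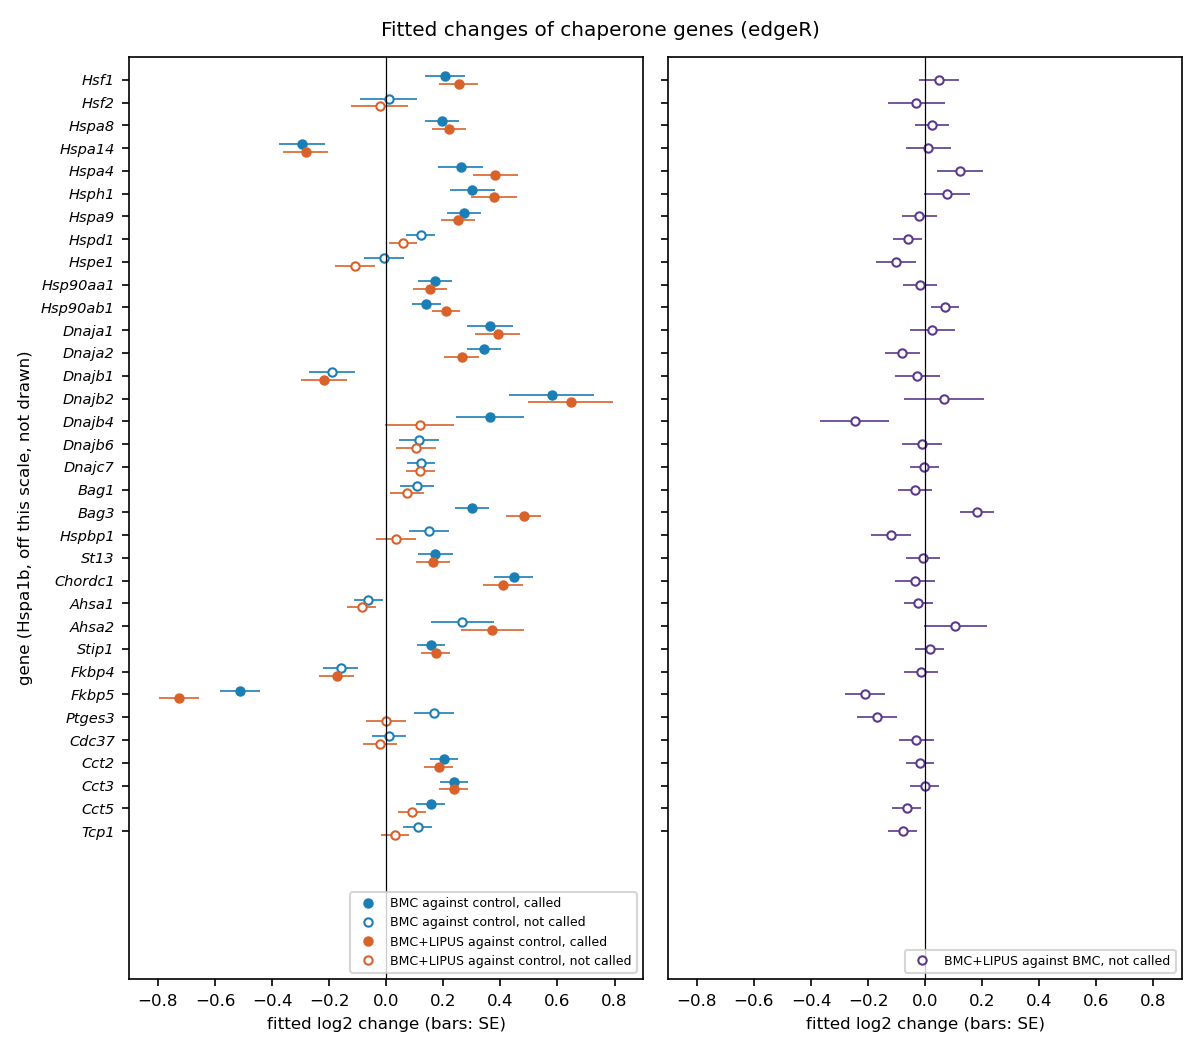
Fitted log2 change (edgeR) of 34 members, with bars of 1 SE, in BMC and BMC+LIPUS against control (left) and in BMC+LIPUS against BMC (right). Filled points were called at an adjusted p under 0.05 and open points were not. On the left the called rises lie between 0.14 and 0.65, the called falls are those of Fkbp5, Hspa14, Dnajb1 and Fkbp4, and on the right no point is filled. Hspa1b is off the scale and not drawn.

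By the labels BMC+LIPUS and BMC differed in ultrasound. No member was called between them: edgeR, DESeq2 and limma on log2(FPKM + 1) each gave 0 of 35, and edgeR called 13 of 12030 features, or 0.108%. At an unadjusted p under 0.05 there were 4 members, Fkbp5, Bag3, Ptges3 and Dnajb4, or 4 of 35 against 11.5% of all features. The median log2 change of the members was -0.02, with a range from -0.25 for Dnajb4 to 0.55 for Hspa1b, and the median over all features was -0.002.

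In 8 of 35 members the BMC and BMC+LIPUS libraries did not overlap in FPKM, against 15.8% of all tested features. In 2 of these, Bag3 and Hsp90ab1, ultrasound libraries were higher (7.74% of all features), and in the other 6 lower (8.05%), namely Hspd1, Dnajb4, Fkbp5, Ptges3, Cct5 and Tcp1. Bag3 went from 26.4 ± 0.608 to 29.8 ± 0.566 FPKM (SD, n = 3), a log2 change of 0.18 (SE 0.06, edgeR adjusted p = 0.295). Fkbp5 went from 5.19 ± 0.0625 to 4.46 ± 0.331 FPKM, a log2 change of -0.21 (SE 0.07, edgeR adjusted p = 0.285). Ptges3 went from 117.0 ± 3.88 to 103.4 ± 9.55 FPKM, a log2 change of -0.17 (SE 0.07, edgeR adjusted p = 0.376) that was -0.09 without BMC+LIPUS replicate 2. These 3 are differences that did not pass the test.

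Hspa1b was not called here either (0.55 log2, SE 0.39, edgeR adjusted p = 0.635). Its value ran from 0.05 to 1.11 log2 when 1 library was left out, the widest of the members. Without the filter on low values, which adds rarely counted features to the estimate of the spread, edgeR called it (0.54 log2, SE 0.15, edgeR adjusted p = 0.0338).

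The spread within groups set Hspa1b apart from the other members. Its SD of log2 CPM (counts scaled to library size with TMM factors) was 0.757, 0.926 and 0.826 in control, BMC and BMC+LIPUS. Only 1.55%, 0.82% and 1.35% of all tested features had as large an SD in the same group. Hspa1b had only 13 to 32 counts in a control library. The median SD of the members was 0.0502, 0.0582 and 0.0819, below the 0.103, 0.110 and 0.114 over all tested features. These medians are not matched for level, since 31 of 35 members reached a mean of 5 FPKM, against 7231 of 12030 features.

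Inside the membrane groups, Hspa1b was lowest in BMC replicate 1 and highest in BMC replicate 3, and lowest in BMC+LIPUS replicate 2 and highest in replicate 3. Of 35 tested members 13 had this same order of libraries in log2 CPM in both groups, and 1 had the reverse order. Of all 12030 tested features 841, or 6.99%, had the order and 892 had the reverse. The 13 were Hspa1b itself, Hsf1, Hspa4, Hspa9, Hsph1, Hspd1, Hsp90aa1, Dnaja1, Dnaja2, Bag3, Fkbp4, St13 and Cct3. By FPKM, Hsp90aa1 and Fkbp4 did not have the order with BMC+LIPUS, and Cct3 did not have it on BMC. The count of 13 thus depends on the scaling with TMM factors. The order was chosen after the values of Hspa1b were seen, and the count is a description. The HSP110 relative Hspa4l followed the same order, at 3.41, 5.56 and 8.86 FPKM on BMC and 9.24, 4.52 and 14.05 with BMC+LIPUS, after 2.61, 2.68 and 2.17 in the controls. So did the osmotic stress genes Slc5a3, Akr1b3 and Slc6a12, which take up or make osmolytes. They and Hspa4l were chosen because they had been used earlier on these data, so their shared order is no independent result. Akr1b3 and Slc6a12 were called higher in both comparisons with control. Slc5a3 was called only with BMC+LIPUS (on BMC edgeR adjusted p = 0.0666). The mean log2 CPM of these 3 genes and Hspa4l was 6.77, 6.45 and 6.66 in the controls, 6.91, 7.53 and 8.27 on BMC and 8.11, 7.30 and 8.68 with BMC+LIPUS. The mean over the tested members other than Hspa1b was 7.55, 7.55 and 7.53, then 7.67, 7.65 and 7.74, then 7.68, 7.62 and 7.70. The part of whatever differed between these libraries in the rise of Hspa1b and the other members was not tested.

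**Figure D4:**
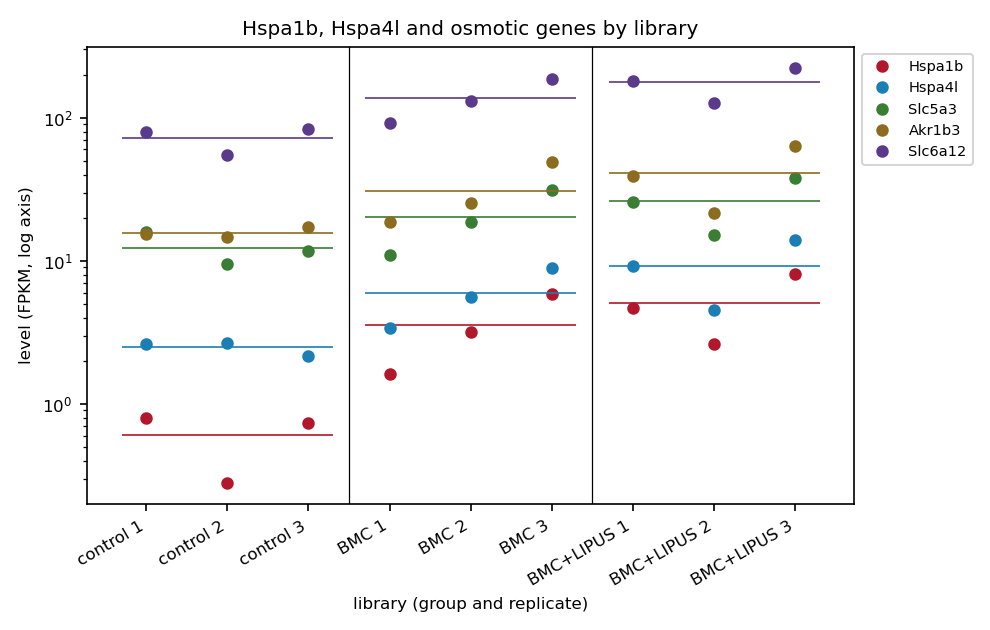
Level (FPKM, log axis) of Hspa1b, Hspa4l and the osmotic stress genes Slc5a3, Akr1b3 and Slc6a12 in each library, with a line at each group mean. In the BMC group replicate 1 is lowest and replicate 3 highest for all 5 genes, and in the BMC+LIPUS group replicate 2 is lowest and replicate 3 highest. Hspa1b ranges from 1.63 to 5.89 FPKM on BMC and from 2.62 to 8.05 with BMC+LIPUS.

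Beyond the members, 86 further genes of the chaperone system were listed in 9 groups, and 67 of them could be tested. On BMC 13 rose and 7 fell, and with BMC+LIPUS 14 rose and 6 fell, with median log2 changes of 0.07 and 0.06. In both comparisons 29.85% of the 67 were called, below the 35.9% and 42.9% of all features. Between BMC+LIPUS and BMC edgeR, DESeq2 and limma called 0 of the 67, and 7 of 67 had an unadjusted p under 0.05, against 11.5% of all features. The largest rise was that of Hspa4l, at 1.32 log2 on BMC (SE 0.34, edgeR adjusted p = 0.00648) and 1.98 with BMC+LIPUS (edgeR adjusted p = 0.000199). Its call on BMC was lost with limma at either pseudocount. Calls of Cct7, Cct8, Vbp1, Nudc, Sugt1, Bag5, Grpel1 and Dnajc19 on BMC, and of Cct6a, Cct7, Pdcl3, Ppp5c, Unc45a, Lonp1 and Dnajc19 with BMC+LIPUS, were also lost in some alternatives.

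Prefoldin hands unfolded actin and tubulin to the TRiC ring. Of 4 further TRiC subunits 3 rose and 0 fell on BMC, which is 75% called against 35.9% of all features. Cct6a rose by 0.22, Cct7 by 0.19 and Cct8 by 0.17 log2, and Cct4 was not called. Of 8 prefoldin and phosducin-like genes 3 rose and 0 fell, Pfdn4 by 0.34, Vbp1 by 0.29 and Pdcl3 by 0.28 log2, which is 37.5% called, near the share over all features. With BMC+LIPUS these lists had 2 called genes each, all higher, or 50% and 25% against 42.9% of all features. Limma on log2(FPKM + 1) called 0 and 1 there.

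Of 16 other J-domain proteins tested 2 rose and 3 fell on BMC (31.25% called), and 5 rose and 3 fell with BMC+LIPUS (50%), near the shares of 35.9% and 42.9% over all features. Dnajb14, an endoplasmic reticulum membrane J-domain protein, fell from 7.07 ± 0.260 FPKM in the controls to 3.79 ± 0.144 on BMC and 3.40 ± 0.174 with BMC+LIPUS (log2 changes -0.84 and -0.99, SE 0.06 each, edgeR adjusted p = 6.38e-08 and 6.12e-09). Dnajc9, which also chaperones histones, fell from 32.4 ± 0.965 to 18.7 ± 1.88 and 15.3 ± 1.29 FPKM (-0.72 and -1.01 log2). Dnajc21, a ribosome maturation factor, rose by 0.34 log2 on BMC, and Dnajb12 by 0.39 log2 with BMC+LIPUS. The largest rise on the list was that of Dnajb5, named after its values were seen, at 0.84 log2 on BMC (SE 0.19, edgeR adjusted p = 0.00272) and 1.00 log2 with BMC+LIPUS (edgeR adjusted p = 0.000508).

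Of 14 further HSP90 cochaperones 2 rose and 1 fell on BMC, and 3 rose and 0 fell with BMC+LIPUS. In each comparison 21.43% were called, below the 35.9% and 42.9% of all features. The cyclophilin Ppid rose by 0.34 and 0.32 log2 and held its call in all 18 alternatives in both comparisons. Sugt1 rose by 0.19 and Nudc fell by 0.17 log2 on BMC, while with BMC+LIPUS Ppp5c rose by 0.17 and Unc45a by 0.23 log2. Of 5 further exchange factors, Bag2 fell by 0.33 and 0.60 log2, and Bag5 rose by 0.21 log2 on BMC. That is 40% called on BMC and 20% with BMC+LIPUS. Of 12 further mitochondrial chaperones and proteases, Hscb, a J-domain protein of iron-sulfur cluster assembly, fell from 16.0 ± 0.658 FPKM to 9.39 ± 1.27 and 7.25 ± 1.76 (-0.71 and -1.08 log2). Dnajc19 fell by 0.30 and 0.29 log2, Grpel1 rose by 0.21 on BMC and Lonp1 rose by 0.19 with BMC+LIPUS. Calls on this list were 25% in each comparison, also below the shares over all features. Of 3 further small heat shock protein genes and 2 further heat shock factors or HSF1 regulators, edgeR and DESeq2 called 0 in any comparison. Limma called 1 of the former on BMC and 1 of the latter with BMC+LIPUS, and 1 gene of each list had an unadjusted edgeR p under 0.05 on BMC.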

How the data were processed

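The deposited table pairs, for each library, raw counts (whole numbers, unscaled by the authors) with FPKM values that the authors rounded to 2 decimals. Per the submitters' processing notes, the tools were HTSeq 0.6.1, HISAT2 2.0.1, DESeq2 and cutadapt 1.9.1, with build GRCm39. The kit was stranded per the labels, but whether counting used strand, and the annotation and filters, is not given here, so overlapping and antisense genes cannot be told apart. Of 56691 lines, 2639 without a name (0.0889% to 0.0976% of a library's counts) were left out; of 77 names on several lines, the name went to the line with most counts, and the others stayed as separate features. The table has 6 columns of 3 other libraries that match no sample label and were not used.

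Features whose mean over the 9 libraries reached 0.5 FPKM were fitted with edgeR 4.0.16 (R 4.3.3): TMM factors, a quasi-likelihood fit of 3 group means, Benjamini-Hochberg adjustment over all 12030, calls under 0.05. The SE comes from the F statistic. The fit was tested on simulated counts. Alternatives were DESeq2 1.42.0, library totals, other filters, limma 3.58.1 on log2(FPKM + 1) and log2(FPKM + 0.1), fits to only the 6 libraries of a comparison, a replicate block, summed Hspa1a and Hspa1b counts, and each library left out. The members, lists, and the rule for named genes were chosen with earlier results of these data known. By that rule, values in every library are given for 12 preset members and the 8 others with the smallest p in any comparison, and up to 3 called genes per further list are named. Promoters are RefSeq's.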

Additional observations from a re-analysis of the deposited data

How the results depend on the processing

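No called member changed sign in any alternative. On BMC against control 12 of the 21 calls held in every alternative and 9 did not, and in BMC+LIPUS against control 14 of 22 held and 8 did not. Leaving out 1 library gave 12 to 22 called members and 3474 to 4518 called features on BMC against control, 15 to 22 and 4299 to 5200 in BMC+LIPUS against control, and 0 and 0 to 51 in BMC+LIPUS against BMC. The low of 12 came without control replicate 1. Between BMC+LIPUS and BMC the features called were 51 without BMC replicate 3, 16 without BMC+LIPUS replicate 2, and 0 to 7 without any other library, in place of 13. The median log2 change of the members then ran from 0.133 to 0.183, 0.131 to 0.169 and -0.034 to 0.01 in the same order. In BMC+LIPUS against control that median was 0.083 with library totals and 0.082 with limma at either pseudocount, in place of 0.154. The median over all tested features moved too, from 0.012 to -0.058 with library totals. With limma it was -0.048 on log2(FPKM + 1) and -0.058 on log2(FPKM + 0.1). In BMC+LIPUS against BMC the features called were 2 with 6 libraries, 88 with DESeq2, 1 with limma on log2(FPKM + 0.1), 0 with limma on log2(FPKM + 1), 8 at a minimum of 5 FPKM and 234 with no filter, where 1 member, Hspa1b, was called. The cause of these differences was not tested. Depth limits Hspa1b, with 13 to 32 counts in a control library, and the untested Hspa1a, Hspa2 and Hspb1.

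With replicate numbers as a block, 23, 0 and 22 members and 4497, 53 and 5311 features were called, listed for BMC against control, then the 2 membrane groups, then BMC+LIPUS against control. Libraries with the same number in their titles had deviations from group means that correlated at -0.0567 to 0.208, 1 of 9 pairs above 0.1, and 3 of 9 libraries were closest to their own number in both other groups, so the numbers were not taken to pair libraries. The numbers in the libraries' description labels differ from those in the titles.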
